A study of Mus musculus with 12 samples.

Results

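The prostaglandin genes described here are the 2 cyclooxygenases Ptgs1 and Ptgs2, the prostaglandin E synthases Ptges, Ptges2 and Ptges3, the prostaglandin-degrading dehydrogenase Hpgd, and the prostaglandin E receptors Ptger3 and Ptger4. They are 8 of the 39086 genes in the count table and were picked by name, with their levels in all 12 libraries already known. Their levels and fold changes are therefore a description and carry no test of their own. All 8 of the 8 genes passed the filter on low counts, which kept 17087 of the 39086 genes (43.7%).

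The study sequenced RNA of 2 cell populations sorted from the villi of the mouse jejunum under 2 diets. The mice were C57BL/6N males that all carried 1 Neurog3 allele replaced by the reporter eYFP (Neurog3 eYFP/+), so every group, controls included, had 1 functional copy of Neurog3, the transcription factor that starts enteroendocrine differentiation. From 8 weeks of age they ate a normal diet (ND, Safe D04) or a high fat diet (HFD, D12492) for 4 weeks, and their cells were sorted at 12 weeks. Villus cells were released with EDTA and dispase, and fluorescence-activated sorting gave eYFP-positive cells, called enteroendocrine cells (EEC), and eYFP-negative cells, called non-EEC. Each of the 4 groups had 3 libraries. The labels do not say which libraries came from the same mouse, so the tests below measure the spread between libraries.

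Prostaglandins are lipid signals made from arachidonic acid that phospholipases free from membranes. The cyclooxygenases turn it into prostaglandin H, and dedicated synthases turn that into prostaglandin E, D, F or I or into thromboxane. Ptgs1 is generally made at a steady level, whereas Ptgs2 is an inducible, short-lived transcript that belongs to the immediate early response. In the intestine, prostaglandin E acts on receptors that raise or lower cyclic AMP, and it is known for its part in secretion, mucosal repair and pain signalling.

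Libraries held between 9543183 and 29054281 counts. Levels are CPM, the share of a library's counts on totals scaled by TMM factors. This usual unit makes libraries of unlike depth comparable. Fold changes are log2 values from a negative binomial fit over all 12 libraries. The standard error (SE) given with them is the absolute log2 fold change divided by the square root of the quasi-likelihood F statistic. For the 8 genes this SE is a description too. The sort labels were checked with 8 enteroendocrine markers, whose summed level was 12159 to 68964 CPM in EEC libraries and 78.7 to 2505 CPM in non-EEC libraries. The highest non-EEC value belonged to ND replicate 1, which also had 37264 CPM of 8 goblet markers against 3140 and 937 in the other two ND libraries. Transcripts of T cells, of which 13 of 14 markers were in the table, made up 13545 to 35626 CPM in ND non-EEC, 111 to 1047 in HFD non-EEC, 678 to 5000 in ND EEC and 47.9 to 220 in HFD EEC. ND non-EEC therefore held transcripts of T cells as well as of epithelium, and in such bulk samples fewer cells of a type and less RNA per cell cannot be told apart.

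The promoters of the cyclooxygenases are shown first, because the balance between these genes is what the first results turn on. RefSeq sequences on build GRCm38.p6 were found for 8 of the 8 genes, as windows from 250 bases before to 50 bases after the annotated start. All motifs were searched on both strands. The half-site of the cyclic AMP response element (CRE) is CGTCA, and the full element is TGACGTCA. The E-box searched is CACGTG. Joined with shared letters, half-site and E-box read CGTCACGTG, which overlaps both motifs. A palindrome bound by C/EBP factors is TTGCGCAA, and the TATA box is TATAAA. Capitals mark a match. The 250 bases upstream of the starts of Ptgs1 (chr2:36230176-36230425, plus strand) and Ptgs2 (chr1:150099781-150100030, plus strand), and 30 bases of Ptgs2 just after its start (chr1:150100034-150100063, plus strand), read:
Ptgs1: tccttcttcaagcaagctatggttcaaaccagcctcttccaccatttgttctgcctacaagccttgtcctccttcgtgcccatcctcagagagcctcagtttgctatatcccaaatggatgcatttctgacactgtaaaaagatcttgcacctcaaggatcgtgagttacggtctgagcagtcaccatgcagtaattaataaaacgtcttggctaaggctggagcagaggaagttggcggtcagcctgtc
Ptgs2: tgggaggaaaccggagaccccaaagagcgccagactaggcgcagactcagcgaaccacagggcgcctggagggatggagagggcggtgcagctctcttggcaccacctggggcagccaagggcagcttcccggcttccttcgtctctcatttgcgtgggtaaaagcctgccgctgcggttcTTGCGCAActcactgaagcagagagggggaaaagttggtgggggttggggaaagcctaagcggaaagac
Ptgs2 start: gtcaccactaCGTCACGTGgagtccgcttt

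The Ptgs2 window held the palindrome TTGCGCAA 69 bases before the annotated start and CGTCACGTG beginning at base 14, counted from 1 at the annotated start. Where transcription starts in these cells was not measured. Of 32851 mouse windows of the same length, 0.183% held TTGCGCAA and 0.451% held CGTCACGTG, whereas CGTCA alone was in 20.8% and CACGTG in 7.15%. The Ptgs1 window held none of the 6 motifs. Among the other members, Ptges3 held CGTCA, Ptges2 held CACGTG and Hpgd held TATAAA (13.6% of windows), and no member held the full CRE (1.79%). A CRE joined to an E-box is a known element of the mouse Ptgs2 promoter, so its match here and its rarity over all windows are no test. The matches say only which letters stand in these windows.

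Ptgs2 (mm10 chr1:150100031-150108227, plus strand) was abundant in 1 of the 4 groups, the EEC of HFD mice. Its level there was 31.6, 29.04 and 58.5 CPM in replicates 1, 2 and 3. In ND EEC the 3 libraries had 0.094, 0.866 and 1.15 CPM, so the lowest HFD library lay far above the highest ND library. Ptgs2 in ND non-EEC was 4.67, 1.63 and 1.49 CPM, and in HFD non-EEC it was 0.121, 0.127 and 1.25 CPM. Among the 3 low groups, ND non-EEC lay above both ND EEC and HFD non-EEC without overlap, and those last 2 groups overlapped.

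In counts, 1596 Ptgs2 reads came from the 3 HFD EEC libraries, 48 from ND EEC, 109 from ND non-EEC and 14 from HFD non-EEC. The group means were 39.7 ± 16.3 CPM (SD, n = 3) in HFD EEC and 0.704 ± 0.547 in ND EEC, a ratio of 56.5. Against HFD non-EEC, at 0.4999 ± 0.652 CPM, the ratio was 79.5. On the log2 scale Ptgs2 was 5.73 ± 0.95 (SE) higher in HFD EEC than in ND EEC, and 6.37 ± 1.01 higher than in HFD non-EEC. The second value was 8.24 without HFD non-EEC replicate 3, which held 11 of the 14 reads of its group, and 5.77 without replicate 1 of that group. In non-EEC the change ran the other way, with a log2 fold change of -2.43 ± 0.91 between the diets, which became -1.78 when ND replicate 1 was left out and -4.30 when HFD replicate 3 was. Under ND, Ptgs2 was lower in EEC than in non-EEC by a log2 fold change of -1.79 ± 0.84, and of -1.10 once ND non-EEC replicate 1 was left out.

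**Figure D1:**
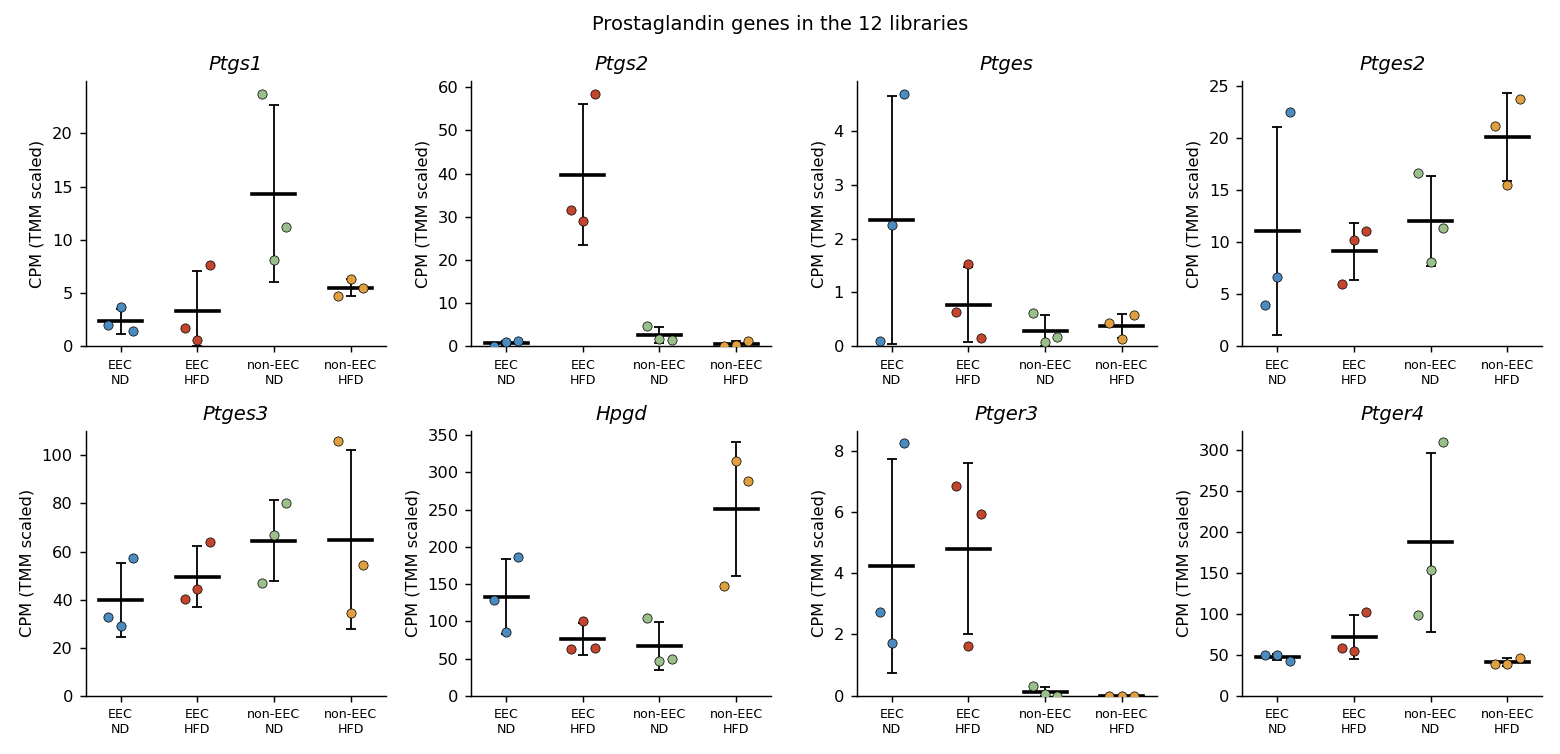
Levels of the 8 prostaglandin genes in CPM (linear axes from 0, a scale for each gene) in the 4 groups; points are libraries 1 to 3 from left to right, the wide line is the mean and the bars are 1 SD, cut at 0. Ptgs2 stands at 29.04 to 58.5 CPM in HFD EEC and below 5 CPM in the other 9 libraries, Ptger3 is near 0 in non-EEC, and Ptger4 and Hpgd change in opposite directions with diet in non-EEC.

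Markers of cells that are known to make Ptgs2 were looked at beside it. The 12 myeloid markers summed to 29.4 to 155 CPM in HFD EEC and to 51.6 to 142 CPM in ND EEC. The 10 stromal markers summed to 2.55 to 5.74 CPM in HFD EEC, with Lum at 0. HFD EEC replicate 3, the library with the most Ptgs2, also had the most myeloid transcripts of its group (155 CPM), and without it the Ptgs2 mean was 30.3 CPM. The part of these cells in the Ptgs2 level was not tested. The neighbouring antisense genes Ptgs2os and Ptgs2os2 had at most 13 and 8 counts in any library.

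Ptgs1 (mm10 chr2:36230426-36252272, plus strand), the other cyclooxygenase, showed a different order of groups. Its level was 23.7, 8.07 and 11.2 CPM in ND non-EEC and 4.70, 6.34 and 5.47 CPM in HFD non-EEC, with no overlap. EEC libraries were lower or mixed, at 1.97, 3.64 and 1.37 CPM in ND and at 1.73, 0.538 and 7.59 CPM in HFD, where replicate 3 stood above every HFD non-EEC library. The log2 fold change of EEC against non-EEC was -2.63 ± 0.82 under ND and -0.74 ± 0.78 under HFD (-2.24 without HFD EEC replicate 3), and between the diets in non-EEC it was -1.38 ± 0.78, or -0.90 without ND non-EEC replicate 1.

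Tuft cells, chemosensory epithelial cells, are known to express Ptgs1. The 14 tuft markers summed to 118 to 504 CPM in ND non-EEC and to 79.6 to 126 CPM in HFD non-EEC, ranges that overlapped. The library with the most Ptgs1, ND non-EEC replicate 1, also had the most tuft transcripts, but replicate 2 of that group had more of them than replicate 3 (188 against 118 CPM) and less Ptgs1. In EEC they summed to 19.7 to 129 CPM under ND, where Il25 and Gnat3 were at 0 and where replicate 1 was highest for tuft transcripts and replicate 2 for Ptgs1, and to 33.0 to 123 CPM under HFD, where replicate 3 was highest for both. Their part in the Ptgs1 values was not tested.

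Per kilobase of exon, the scale on which genes can be compared, the balance of the cyclooxygenases turned over in HFD EEC. There Ptgs2 made up 93.9, 97.9 and 86.7% of the summed level of both genes. In ND EEC its share was 3.88, 16.8 and 41.6%, in ND non-EEC 14.3, 14.6 and 10.1%, and in HFD non-EEC 2.13, 1.67 and 16.3%. The summed level was 6.48 to 14.7 CPM per kb in HFD EEC and 0.529 to 1.13 in ND EEC. In ND non-EEC it was 2.43 to 7.13 CPM per kb, so 1 of those libraries reached the lower HFD EEC values with mostly Ptgs1.

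**Figure D2:**
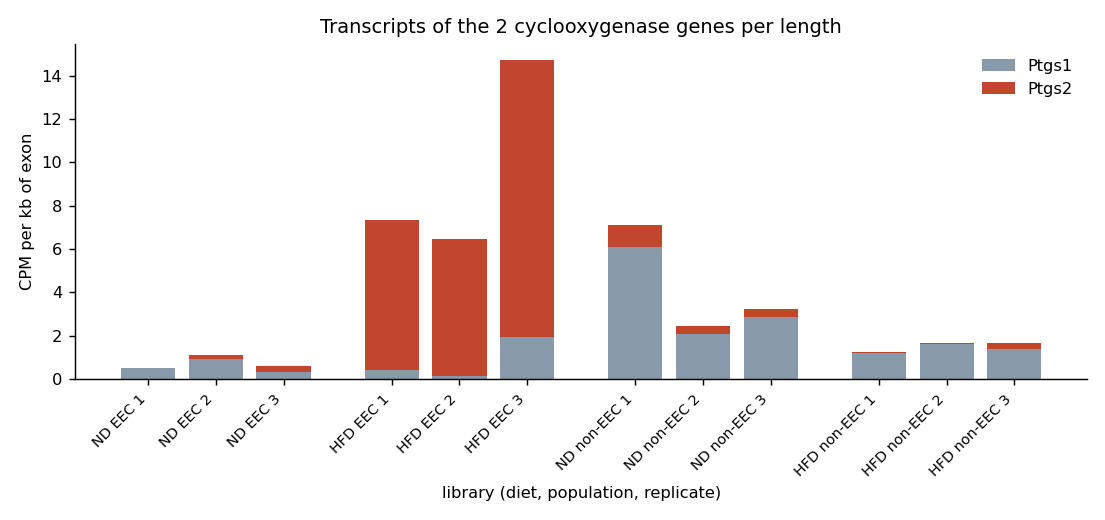
Level of Ptgs1 (grey) and Ptgs2 (red) stacked for each of the 12 libraries, in CPM per kb of exon on an axis from 0. Ptgs2 makes up 86.7 to 97.9% of the column in the 3 HFD EEC libraries and at most 41.6% in the other 9.

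For each of the 3 prostaglandin E synthases the libraries of the diets overlapped in EEC, unlike those of Ptgs2. Ptges (mm10 chr2:30889471-30929863, minus strand), the inducible microsomal synthase that is often paired with Ptgs2, was scarce. It had 0.641, 1.52 and 0.150 CPM in HFD EEC, and 0.094, 2.25 and 4.70 CPM in ND EEC. The diets differed by -1.62 ± 1.18 on the log2 scale. Non-EEC libraries had 0.071 to 0.623 CPM, from 12 counts in ND and 13 in HFD. The ND EEC mean, 2.35 ± 2.30 CPM (SD, n = 3), rested on replicate 3, which gave 151 of the 178 counts.

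Ptges2 (mm10 chr2:32395896-32405772, plus strand), a membrane-associated synthase, had 3.95, 6.67 and 22.5 CPM in ND EEC and 5.97, 10.2 and 11.0 CPM in HFD EEC. In non-EEC it had 16.7, 8.07 and 11.3 CPM under ND and 21.1, 15.5 and 23.7 CPM under HFD. EEC lay below non-EEC without overlap under HFD, by a log2 fold change of -1.15 ± 0.58, and overlapped it under ND. Its log2 fold change between the diets in EEC was -0.29 ± 0.57 and became positive, at 0.73, without ND EEC replicate 3.

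Ptges3 (mm10 chr10:128058954-128077272, plus strand), also known as the HSP90 co-chaperone p23, was the most abundant synthase per kb in all 12 libraries. Its level ran from 29.2 to 57.3 CPM in ND EEC, 40.2 to 63.9 in HFD EEC, 46.8 to 80.0 in ND non-EEC and 34.2 to 106 in HFD non-EEC, and every pair of groups overlapped. A processed copy, Ptges3-ps, had 7 to 69 counts a library, so some reads may be shared between the copies. Ptges made up 0.123 to 1.73% of the 3 synthases per kb in HFD EEC.

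Hpgd (mm10 chr8:56294585-56321043, plus strand), the dehydrogenase that inactivates prostaglandins, was the member with the highest mean level per kb in each group. In ND non-EEC that place rested on replicate 1: Ptges3 stood above it in replicates 2 and 3, and Ptger4 in replicate 3. Hpgd had 128, 85.2 and 186 CPM in ND EEC and 63.1, 101 and 63.6 CPM in HFD EEC. Non-EEC moved in the opposite direction, from 105, 46.6 and 49.7 CPM under ND to 148, 316 and 288 CPM under HFD, without overlap. The log2 fold change between the diets was 1.90 ± 0.44 in non-EEC and -0.81 ± 0.43 in EEC, where the groups overlapped. Within HFD, EEC lay below non-EEC without overlap by a log2 fold change of -1.72 ± 0.44. Under ND it was 0.99 ± 0.43, or 1.42 without ND non-EEC replicate 1.

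Enterocyte transcripts moved with Hpgd. The 12 enterocyte markers summed to 46696 to 108240 CPM in HFD non-EEC against 4069 to 23265 CPM in ND non-EEC, and the ND library with the most Hpgd, replicate 1, had the most of them. In EEC they summed to 13168 to 20366 CPM under ND and to 11879 to 28090 CPM under HFD. Their part in the Hpgd values was not tested.

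Ptger3 (mm10 chr3:157566892-157645888, plus strand), the EP3 receptor that mostly lowers cyclic AMP, was found almost only in EEC. The EEC libraries had 2.72, 1.73 and 8.24 CPM under ND and 6.86, 1.61 and 5.93 CPM under HFD. Non-EEC libraries had 0.311, 0.071 and 0 CPM under ND and 0 counts in each of the 3 HFD libraries. All 6 EEC libraries thus lay above all 6 non-EEC libraries, and the diets overlapped within EEC, with a log2 fold change of 0.17 ± 0.95. Under HFD, EEC had 204 counts and was at least 56.5-fold higher than a floor of 3 counts over the non-EEC group. Under ND the ratio of means was 33.2, from 314 counts against 5. Of the 5, 4 came from ND non-EEC replicate 1, the library with the highest enteroendocrine marker sum of its group, and without it the ratio was 119.6. Of the 314, 265 came from ND EEC replicate 3, and without that library the ratio was 17.5.

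Ptger4 (mm10 chr15:5206661-5244187, minus strand), the EP4 receptor that raises cyclic AMP, was the more abundant receptor per kb in all 12 libraries. Its level was 99.2, 153 and 310 CPM in ND non-EEC and 38.7, 38.2 and 46.3 CPM in HFD non-EEC, a log2 fold change of -2.19 ± 0.41 (-1.60 without ND non-EEC replicate 3). EEC libraries had 49.8, 49.3 and 42.9 CPM under ND and 58.2, 54.5 and 102 CPM under HFD, with a log2 fold change of 0.60 ± 0.39. On these TMM-scaled levels the libraries of the diets overlapped in neither population. On raw library totals they overlapped in EEC. There ND EEC replicate 2, with 569 of 9543183 counts, lay above HFD EEC replicates 1 (907 of 16331053) and 2 (608 of 11083904). Relative to non-EEC, EEC was lower under ND (-1.99 ± 0.41, or -1.37 without ND non-EEC replicate 3) and higher under HFD (0.80 ± 0.40), each time without overlap.

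T cells are known to express Ptger4, and their transcripts moved with it in non-EEC. The 13 T cell markers found fell from 13545 to 35626 CPM under ND to 111 to 1047 CPM under HFD, and ND non-EEC replicate 3 was highest in both. All 13 were lower in HFD non-EEC by edgeR's quasi-likelihood test (adjusted p below 0.05, median log2 fold change -4.90), beside 14.9% of all genes. Between the diets in EEC, 0 of the 13 passed that threshold (0% of all genes), with a median log2 fold change of -4.54. In EEC the T cell sums were lower under HFD, at 47.9 to 220 CPM against 678 to 5000, while Ptger4 was higher. Their part in the Ptger4 values was not tested. Exons of Ptger4 overlap those of Ttc33 on the opposite strand, which had 2740 counts in all, and the strand setting of the counting is not given in the sources used here.

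**Figure D3:**
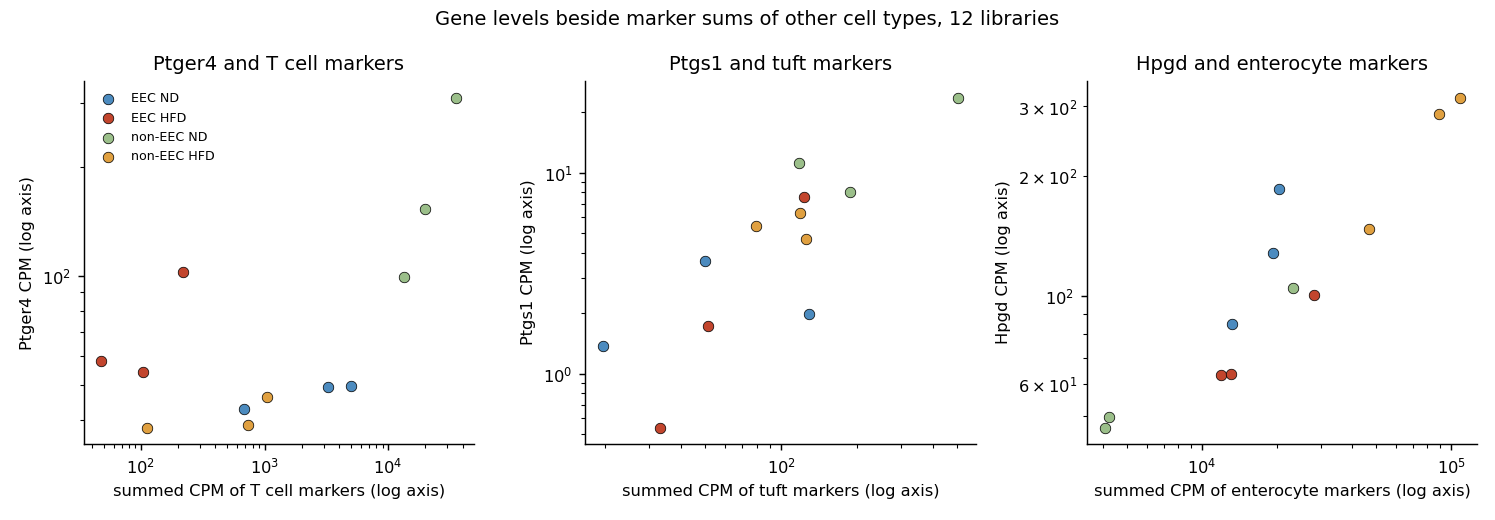
Level of Ptger4, Ptgs1 and Hpgd (CPM, log axis) against the summed CPM of T cell, tuft and enterocyte markers (log axis) in the 12 libraries, coloured by group. ND non-EEC libraries lie at the upper right for Ptger4 and T cells, at 99.2 to 310 CPM of Ptger4, and HFD non-EEC libraries at the upper right for Hpgd and enterocytes, at 148 to 316 CPM of Hpgd.

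Ordered by their mean level per kb, the 8 genes stood as follows. In HFD EEC the means were 45.1 CPM per kb for Hpgd, 22.3 for Ptges3, 10.8 for Ptger4 and 8.67 for Ptgs2. Ptges2 followed at 1.79, Ptgs1 at 0.846, Ptger3 at 0.845 and Ptges at 0.196. In ND EEC Ptgs2 was the lowest of the 8 at 0.154 CPM per kb, below Ptges at 0.597 and Ptgs1 at 0.599. In HFD non-EEC it stood at 0.109, with Ptges at 0.0948 and Ptger3 at 0. In ND non-EEC the means were 39.8 CPM per kb for Hpgd, 29.1 for Ptges3, 28.2 for Ptger4 and 3.69 for Ptgs1. Below them stood Ptges2 at 2.38, Ptgs2 at 0.567, Ptges at 0.0734 and Ptger3 at 0.0224.

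**Figure D4:**
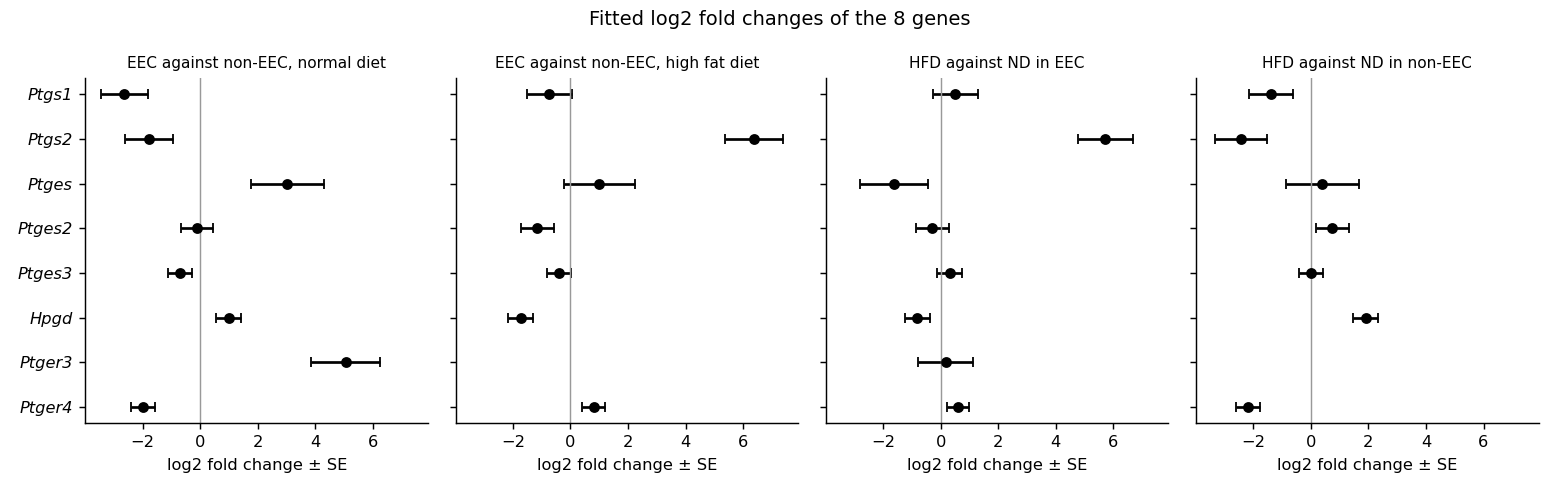
Fitted log2 fold changes with SE of the 8 genes in 4 comparisons (first group minus second; positive is higher in EEC or HFD). Ptgs2 reads 5.73 in HFD against ND EEC and -2.43 in non-EEC; Ptger3 is not drawn where the HFD non-EEC group, which had 0 counts, enters the comparison.

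The count of members past the adjusted p threshold of 0.05 is given with that of all genes, and nothing is read from it, since the genes were chosen on these libraries. It was 3 of 8 for EEC against non-EEC over both diets (21.6% of the 17087 genes tested), 2 under ND (12.8%) and 3 under HFD (14%). For HFD against ND it was 0 in EEC (0%) and 2 in non-EEC (14.9%), and 1 for the difference of the diet effects (0.497%). In EEC, 1 member was past an unadjusted p of 0.05, a threshold at which all genes were not counted here or below. With DESeq2 and with limma-voom 1 was past the adjusted threshold, and over all genes these tools called 465 and 8. Leaving out 1 library changed these counts. Under ND 1 member was left without ND EEC replicate 3 (6.74% of all genes) or ND non-EEC replicate 2 (5.1%) or 3 (5.46%). In non-EEC 1 was left without ND replicate 2 (5.69%) or 3 (5.75%) or HFD replicate 2 (5.52%). In EEC 1 was called without ND EEC replicate 3 (1.22%). The same was seen when the non-EEC library ND replicate 1 (0.358%) or HFD replicate 2 (0.573%) was left out. For the difference 3 were called without ND non-EEC replicate 1 (7.1%). In 7 of the other runs 0 were called, and over all those other runs at most 0.548% of all genes were called.

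Counted by whether single libraries overlap, 1 of 8 members did not overlap between EEC and non-EEC over both diets (9.17% of all genes). Under ND it was 4 of 8 (32.5%) and under HFD 5 of 8 (35.8%). Between the diets it was 2 of 8 in EEC (15%), Ptgs2 and Ptger4, and 4 of 8 in non-EEC (35.3%), Ptgs1, Ptgs2, Ptger4 and Hpgd. These counts use TMM-scaled levels, and on raw library totals the Ptger4 libraries of the diets overlapped in EEC. The median log2 fold change of the members between the diets was 0.24 in EEC and -0.69 in non-EEC, beside 0.00 and -0.10 for all genes tested.

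The rest of the pathway was followed in 48 further genes in 5 lists, of which 37 passed the filter. With edgeR's quasi-likelihood test and Benjamini-Hochberg adjustment over all 17087 genes, 7 were higher and 4 lower in EEC than in non-EEC over both diets, 29.7% of those tested, against 21.6% of all genes. Among 12 tested genes of arachidonate release, 4 were higher in EEC and 0 lower. Of 7 other prostanoid synthases, 0 passed the edgeR threshold in either direction (4 at an unadjusted p of 0.05). For them the count was 1 with DESeq2 (28.1% of all genes) and 3 with limma-voom (32.5%). By edgeR, 2 of 5 genes of prostaglandin reduction and transport were higher. Among 4 other prostanoid receptors 1 was lower, and of 9 lipoxygenase and leukotriene genes 1 was higher and 3 were lower. The genes named next for this comparison kept their call without any 1 of the 12 libraries.

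Secreted phospholipases, which free fatty acids from phospholipids, were among the genes higher in EEC, with 3 called, while Pla2g2a, Pla2g3, Pla2g5, Pla2g10 and Pla2g12b did not pass. Pla2g2f had 238, 54.4 and 91.9 CPM in ND EEC and 220, 58.1 and 109 CPM in HFD EEC, against 0.630 to 19.3 CPM in the 6 non-EEC libraries, with a log2 fold change of 4.85 ± 0.83 (edgeR adjusted p = 0.00106). The highest non-EEC value was that of ND replicate 1, and without it the fold change was 6.18. It was 5.47 when HFD non-EEC replicate 1 was left out. Pla2g2d had 9.05 to 46.2 CPM in EEC and 1.49 to 4.82 CPM in non-EEC, with a log2 fold change of 3.16 ± 0.46 (edgeR adjusted p = 0.000335). Pla2g12a was higher by 1.46 ± 0.32 (edgeR adjusted p = 0.00517). For each of these 3 genes the EEC and non-EEC libraries did not overlap.

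Transporters of prostaglandins were also higher in EEC. Slco2a1, which carries prostaglandins into cells for breakdown, had 390, 172 and 192 CPM in ND EEC and 602, 359 and 482 CPM in HFD EEC. Non-EEC libraries had 87.9, 17.1 and 9.68 CPM under ND and 33.7, 169 and 56.7 CPM under HFD, all below the lowest EEC library. Its log2 fold change over both diets was 2.60 ± 0.55 (edgeR adjusted p = 0.00449), and 3.34 when the non-EEC library ND replicate 1 was left out. Abcc4, an exporter of prostaglandins and cyclic nucleotides, had 46.1, 50.1 and 48.0 CPM in ND EEC and 37.1, 13.0 and 26.3 CPM in HFD EEC. Non-EEC libraries had 18.5, 20.3 and 20.3 CPM under ND and 1.93, 1.01 and 4.33 CPM under HFD, so that 1 HFD EEC library lay below ND non-EEC. The log2 fold change of Abcc4 over both diets was 2.34 ± 0.35 (edgeR adjusted p = 0.000369).

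**Figure D5:**
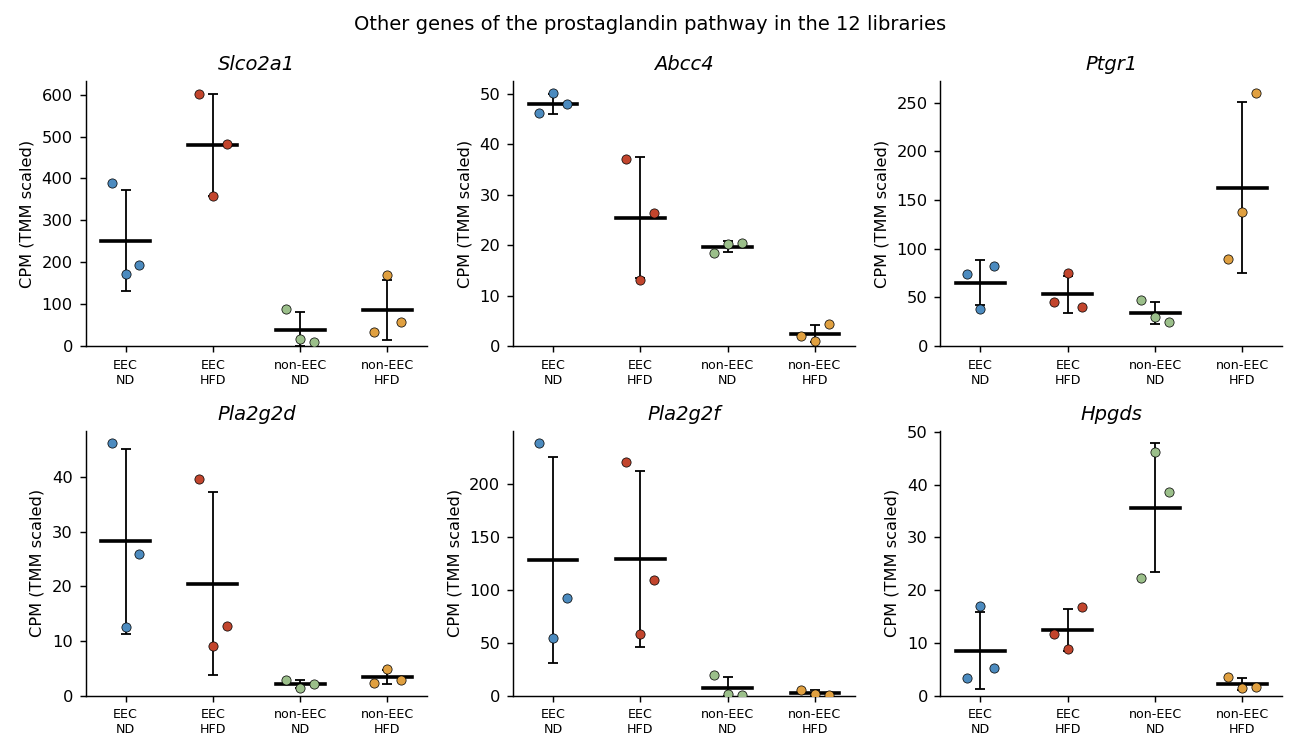
Levels of 6 further pathway genes in CPM (linear axes from 0) in the 4 groups; points are libraries, the wide line is the mean and the bars are 1 SD, cut at 0. Slco2a1, Pla2g2d and Pla2g2f are higher in all 6 EEC libraries than in all 6 non-EEC libraries, and in non-EEC Abcc4 and Hpgds are lower and Ptgr1 is higher under HFD.

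In the lipoxygenase branch, which makes leukotrienes and related lipids from the same arachidonic acid, Alox15 was higher in EEC by 3.66 ± 0.79 (edgeR adjusted p = 0.00496), at 0.717 to 11.3 CPM against 0 to 0.991 CPM. Without ND EEC replicate 3 the value was 2.92 (adjusted p = 0.0173), and without replicate 1 of HFD non-EEC it was 5.03 (adjusted p = 0.00936). Lta4h, the enzyme that makes leukotriene B, was lower by a log2 fold change of -1.17 ± 0.27 (edgeR adjusted p = 0.00698). Its levels were 27.4 to 92.5 CPM in EEC and 91.6 to 188 CPM in non-EEC, which overlapped in 1 ND library of each population.

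Within single diets fewer of these calls held. Under ND 3 of the 37 genes were higher in EEC and 1 lower (10.8%, against 12.8% of all genes). Of these Pla2g2d kept its call without any 1 library, with a log2 fold change of 3.71 ± 0.67 (edgeR adjusted p = 0.0045), or 3.12 without ND EEC replicate 1. Under HFD 8 were higher and 5 lower (35.1%, against 14% of all genes). Of these Abcc4 kept its call without any 1 library, with a log2 fold change of 3.39 ± 0.52 (edgeR adjusted p = 0.00103), or 4.06 without HFD non-EEC replicate 3. The other 3 and 12 genes lost theirs without at least 1 library. The count of 4 under ND became 1 without ND EEC replicate 1 (10.5% of all genes) or ND non-EEC replicate 2 (5.1%) or 3 (5.46%). It became 2 without the EEC library ND replicate 3 (6.74%) or HFD replicate 1 (10.6%). The count of 13 under HFD became 3 without EEC replicate 1 of that diet (6.67% of all genes) and 4 without EEC replicate 3 (7.24%). Without HFD non-EEC replicate 2 the count was 7 (7.63%), and without HFD non-EEC replicate 3 it was 2 (6.89%).

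Between the diets in EEC, 0 of the 37 pathway genes passed edgeR's adjusted threshold (0% of all genes). At an unadjusted p of 0.05, where all genes were not counted, there were 4. DESeq2 called 1 of the 37 (2.72% of all genes) and limma-voom 0 (0.0468%). The gene DESeq2 called was Cysltr2, a leukotriene receptor, with 7.23, 19.3 and 4.38 CPM in ND EEC and 1.15, 1.25 and 1.05 CPM in HFD EEC and a log2 fold change of -3.15 ± 0.89 (edgeR adjusted p = 0.194). It passed edgeR's threshold without the filter on low counts, at -3.17 (adjusted p = 0.0311, 0.933% of all genes). With that filter it passed edgeR's threshold without HFD non-EEC replicate 2, at -3.15 (adjusted p = 0.0448). Leaving out ND EEC replicate 2 gave -2.35 (adjusted p = 0.404), and over the 12 such runs the adjusted p reached 0.534. T cell marker sums were lower in the same libraries, as given above, and their part was not tested.

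In non-EEC, 5 of the 37 genes were higher and 4 lower under HFD (24.3%, against 14.9% of all genes), and 4 of the 9 kept their call without any 1 library. The count was 14 without ND replicate 1 (23.5% of all genes). It was 4 without ND replicate 2 (5.69%) or 3 (5.75%) or HFD replicate 3 (6.91%). Hpgds, which makes prostaglandin D in immune and tuft cells, had 22.3, 46.1 and 38.5 CPM under ND and 3.62, 1.40 and 1.71 CPM under HFD, a log2 fold change of -3.96 ± 0.66 (edgeR adjusted p = 0.00342; -4.58 without HFD replicate 1). Abcc4 was lower as well, by -3.02 ± 0.51 (edgeR adjusted p = 0.00364; -3.70 without HFD replicate 3). Cysltr2 went from 31.4, 71.4 and 89.5 CPM to 4.94, 0.127 and 6.83 CPM, a log2 fold change of -4.00 ± 0.89 (edgeR adjusted p = 0.0115; -4.59 without HFD replicate 3). Ptgr1, a reductase that acts after Hpgd in breakdown, was higher, at 47.2, 29.4 and 25.1 CPM under ND and 89.8, 138 and 260 CPM under HFD, a log2 fold change of 2.26 ± 0.46 (edgeR adjusted p = 0.00792). The T cell and enterocyte marker sums given above differed between these groups too, and so did mast cell markers, at 274 to 382 CPM under ND and 9.89 to 82.4 CPM under HFD. Their part in these changes was not tested.

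The difference of the diet effects between EEC and non-EEC passed the threshold for 1 of the 37 genes (0.497% of all genes), Hpgds, at 4.51 ± 0.87 on the log2 scale (edgeR adjusted p = 0.0424). That call was lost in 10 of the 12 runs that left out 1 library, and its value ran from 4.16 to 5.43 over the 12 runs, the highest without ND EEC replicate 2. Without ND non-EEC replicate 1 the count of pathway genes was 6, and 7.1% of all genes were called. Hpgds was 3.38, 17.0 and 5.32 CPM in ND EEC and 11.7, 8.87 and 16.8 CPM in HFD EEC, which overlapped.

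Because Ptgs2 is an immediate early gene, 18 others of that class were read beside it. In HFD against ND EEC 17 of the 18 had a positive log2 fold change, with a median of 1.43 beside 0.00 for all genes. None, 0 of 18, passed edgeR's adjusted threshold, which 0% of all genes passed. DESeq2 called 8 (2.72% of all genes) and limma-voom 0 (0.0468%). At an unadjusted p of 0.05 there were 14, and the share of all genes at that threshold was not counted. Atf3 had 47.2, 43.7 and 54.2 CPM in ND EEC and 259, 196 and 861 CPM in HFD EEC, higher by 3.18 ± 0.66 on the log2 scale (edgeR adjusted p = 0.0761). DESeq2 called Atf3 (adjusted p = 0.000102), as did edgeR without the filter on low counts (adjusted p = 0.00311, 0.933% of all genes). With that filter, Atf3 passed edgeR's threshold in runs that left out 1 non-EEC library. These left out ND replicate 1 (3.13, adjusted p = 0.048) or HFD replicate 2 (3.18, adjusted p = 0.0496). The value was 2.19 without HFD EEC replicate 3 (adjusted p = 0.246), and over the 12 such runs the adjusted p reached 0.322. HFD EEC replicate 3 was highest for Atf3, Egr3 and Ptgs2 alike.

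In non-EEC 4 of these 18 genes were higher and 2 lower under HFD, beside 14.9% of all genes in either direction. Atf3 was higher there too, by 3.09 ± 0.66 (edgeR adjusted p = 0.00981), or 3.85 without ND non-EEC replicate 1. The group means of Egr3 stood in the same order as those of Ptgs2. Egr3 had 4.36, 5.29 and 25.9 CPM in HFD EEC and 0.188 to 1.34 in ND EEC. Non-EEC libraries had 3.44 to 4.59 CPM under ND and 0 to 0.455 under HFD. Unlike Ptgs2, Egr3 overlapped between HFD EEC and ND non-EEC. Between the diets in EEC it differed by 3.83 ± 0.95 (edgeR adjusted p = 0.131). DESeq2 called that change (adjusted p = 0.000654), as did edgeR without the filter on low counts (adjusted p = 0.0319). Within HFD, Egr3 was higher in EEC by 5.34 ± 1.06 (edgeR adjusted p = 0.00506), a call kept without any 1 library, with a value of 4.05 without HFD EEC replicate 3.

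Among 12 genes of the cyclic AMP response, through which the prostaglandin E receptors signal, 0 passed edgeR's threshold between the diets in EEC (2 at an unadjusted p of 0.05, 0 with DESeq2 and 0 with limma-voom). In non-EEC 1 was higher and 3 were lower, beside 14.9% of all genes in either direction. Prkacb, a catalytic subunit of the cyclic AMP-dependent kinase, had 354, 545 and 793 CPM in ND non-EEC and 43.0, 10.8 and 26.9 CPM in HFD non-EEC, a log2 fold change of -4.39 ± 0.55 (edgeR adjusted p = 0.00162) that held without any 1 library. T cell marker sums were lower in the same libraries (13545 to 35626 CPM under ND, 111 to 1047 CPM under HFD), and in ND non-EEC both Prkacb and these sums were lowest in replicate 1 and highest in replicate 3. Their part in the Prkacb values was not tested.

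The genes with the profile most like each member were found by Pearson's r of log2 CPM over the 12 libraries, among genes with a mean of at least 10 CPM. For Ptgs2 they were Anapc5 (r = 0.90), Zfp622 (0.88), Aacs (0.86), Csad (0.85) and Sgsm3 (0.83). By Spearman's rho 0 of these 5 were among the 5 most like it. For Ptger3 the nearest were Scg5 (0.98), a chaperone of a prohormone convertase, and Fam183b (0.98). Hpgd was nearest to Mocs2 (0.97) and Pepd (0.97), Ptger4 to 9430015G10Rik (0.95) and Hk1 (0.93), and Ptgs1 to Spib (0.84) and Arih2 (0.84). Among the synthases, Ptges was nearest to Borcs7 (0.89) and Ammecr1 (0.79), Ptges2 to Erp44 (0.94) and Ndufc2 (0.92), and Ptges3 to Sdf2l1 (0.87) and Ran (0.86). The libraries share 4 groups and their cell makeup, so these values are a description.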

How the data were processed

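Whole-number counts per gene were deposited by the authors in 1 table, with a column for each of the 12 libraries. Per the labels' protocols, cDNA came from the Ovation RNA-Seq V2 kit. The tools in the submitters' processing notes are HTSeq 0.5.4p3, Bowtie2 2.1.0, TopHat2 2.0.10 and CASAVA 1.8.2, with build mm10. Nothing used here gives the annotation release, the strand setting or the counting mode. Symbols and loci came from GENCODE vM21 (96.2% of identifiers matched).

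Genes were kept by filterByExpr, and 4 group means were fitted with edgeR 4.0.16 (R 4.3.3; TMM factors, quasi-likelihood test, 8 residual degrees of freedom, biological coefficient of variation 0.536). Benjamini-Hochberg adjustment ran over all 17087 genes, with calls below 0.05. Alternatives used DESeq2 1.42.0, limma 3.58.1, other scalings and filters, blocks and leave-one-out runs.

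The members and lists were chosen with earlier results of these data known. Of each list, up to 4 called genes with the smallest adjusted p were eligible to be named in each comparison, or the 2 with the smallest p if none was called. For likeness, the 5 (Ptgs2) or 2 genes with the highest r were named.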

Additional observations from a re-analysis of the deposited data

Results flagged for a closer look

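On TMM-scaled levels, Ptgs2 and Ptger4 of the 8 members were higher in all 3 HFD EEC libraries than in any ND EEC library. Both were lower in all 3 HFD non-EEC libraries than in any ND non-EEC library. For Ptger4 the libraries of the diets overlapped in EEC on raw library totals, and its log2 fold change there was 0.60. The log2 difference of the diet effects, EEC minus non-EEC, was 8.16 ± 1.29 for Ptgs2 and 2.79 ± 0.57 for Ptger4. Without HFD non-EEC replicate 3 the value for Ptgs2 was 10.03. The genes were chosen on these values, so these differences are given as a description, and nothing is read from a test of them.

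Among the 37 pathway, 18 immediate early and 12 cyclic AMP response genes tested, edgeR's test of the difference passed the adjusted threshold for 3. It did so for 0.497% of all genes and for 1 of 5 mast cell markers tested. The log2 difference was 4.51 for Hpgds (adjusted p = 0.0424), 7.55 for Egr3 (adjusted p = 0.0402) and 3.74 for Prkacb (adjusted p = 0.0413). Of the 12 runs that left out 1 library, 2 kept the call for Hpgds, 2 for Egr3 and 3 for Prkacb. The direction stayed the same in every such run, with values of 4.16 to 5.43 for Hpgds, 6.31 to 8.12 for Egr3 and 3.36 to 4.27 for Prkacb. T cell marker sums differed between the diets in both populations, as given above, and their part in the Prkacb and Hpgds values was not tested. Groups of 3 libraries are too small for a search for outlying libraries.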

How the results depend on the processing

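No value of a named gene that was called changed direction under any alternative run. Under ND, EEC against non-EEC, the 4 pathway genes called became 8 without a filter on low counts, 14 with DESeq2, 14 with limma-voom and 8 with a replicate block within diet. Of all genes tested in these runs 8.9, 21.2, 30.1 and 12.6% were called, in that order, beside 12.8% in the main fit. The 2 members called there became 5 with limma-voom and 1 with that block. For HFD against ND in EEC the pathway count of 0 became 1 without the filter and 1 with DESeq2. Of all genes 0.933% and 2.72% were called in those runs and 0.0468% with limma-voom, beside 0% in the main fit. The member count of 0 became 1 without the filter, with DESeq2 and with limma-voom, and the member was Ptgs2 each time. In non-EEC the 9 pathway genes (14.9% of all genes) became 18 with DESeq2 (23.7%) and 22 with limma-voom (40.6%). For the difference of the diet effects the pathway count of 1 became 0 with upper quartile factors, 3 without the filter, 5 with DESeq2 and 9 with limma-voom. Of all genes 0.503, 1.25, 6.27 and 12.8% were called in these runs, beside 0.497% in the main fit. The member count of 1 became 3 without the filter, 2 with a filter of 5 CPM in 3 libraries, 2 with robust dispersion, 3 with DESeq2 and 3 with limma-voom. With the 5 CPM filter 0.886% of all genes were called, and with robust dispersion 0.497%.

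Leaving out 1 library at a time gave 8 to 12 pathway genes and 2 to 3 members over both diets, 1 to 6 and 1 to 3 under ND, and 2 to 14 and 2 to 3 under HFD. Between the diets it gave 0 to 1 and 0 to 1 in EEC, 4 to 14 and 1 to 3 in non-EEC, and 0 to 6 and 0 to 3 for the difference. Of all genes these runs called 15.6 to 21.9% over both diets, 5.1 to 17% under ND and 6.67 to 16.6% under HFD. Between the diets they called 0 to 1.22% in EEC, 5.52 to 23.5% in non-EEC and 0 to 7.1% for the difference. The cause of these changes was not tested.

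Replicate numbers of EEC and non-EEC libraries were compared by their deviations from the group means: same-numbered pairs correlated at 0.14, 0.23 and -0.01 under ND and 0.25, 0.24 and 0.23 under HFD. Pairs with unlike numbers ran from -0.22 to 0.11, so every same-numbered pair but that of ND replicate 3 was higher. ND replicate 3 did not correlate best with its own number. Libraries of unlike diets, which came from different mice, ran from -0.19 to 0.18 in EEC and from -0.18 to 0.23 in non-EEC. The labels give no pairing, so the main fit took the libraries as independent. Whether same-numbered libraries shared a mouse or a batch was not tested. With a replicate block within diet, EEC against non-EEC called 12.6% of all genes under ND and 16.4% under HFD. The main fit called 12.8% and 14%. Low counts limit Ptges, Ptger3 in non-EEC and Ptgs2 outside HFD EEC, where a library can hold 1 read.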
